A study of Mus musculus with 6 samples.

Results

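The genes described here are the members of the bone morphogenetic protein (BMP) pathway that a list of 10 symbols names: the ligands Bmp2 and Bmp4, the proteinase Bmp1, the receptors Bmpr1a and Bmpr2, the secreted antagonists Nbl1 and Grem1, and the target genes Id1, Id2 and Id3. They were chosen by symbol and by role, with no measured value in the rule, but with earlier results of these data known. Of the 10, 9 were present among the 18197 gene symbols of the count table, and all 9 had enough counts to be tested. Grem1 was not analysed here.

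RNA-seq was run on 6 libraries of cancer-associated fibroblasts, the matrix-making stromal cells of a tumour, sorted from mammary tumours of C57BL/6 mice that carry the polyoma middle T oncogene (PyMT). The tumours were harvested at 16 to 20 weeks. The 3 libraries labelled mPGES-1 KO come from PyMT mice whose genotype is given as knockout of microsomal prostaglandin E synthase-1, an enzyme that makes prostaglandin E2 (PGE2), and the 3 libraries labelled WT come from PyMT mice with no such knockout. The labels give neither the promoter behind the oncogene, nor the kind of knockout allele, nor the surface markers of the sort, and they do not say whether replicates are separate animals. P-values therefore speak only of the variation among these 6 libraries, part of which may be technical. The series title names a PGE2-dependent expression signature, so the question here is whether the BMP genes differ between the genotypes.

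BMPs are secreted signalling proteins of the TGF-beta superfamily. A BMP dimer brings type I receptors such as BMPR1A together with the type II receptor BMPR2, the type II kinase activates the type I kinase, and this phosphorylates SMAD proteins that move to the nucleus and switch on target genes, the ID genes among them. Antagonists such as NBL1 (also called DAN) and gremlin, the product of Grem1, bind BMPs outside the cell and keep them from the receptors. ID proteins hold a helix-loop-helix domain without the basic region that contacts DNA, so they pair with E proteins such as TCF3 and hold them off their sites. BMP1, despite its name, is no ligand of this kind but a tolloid metalloproteinase, which trims procollagens and cleaves the BMP antagonist chordin.

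Some facts of the libraries touch every result. Total counts ran from 23013498 to 37249186 in libraries labelled mPGES-1 KO and from 37432510 to 43648450 in those labelled WT. Ptges, the gene of mPGES-1, had 186, 136.5 and 128.5 CPM (counts scaled to TMM-adjusted library totals) in replicates 1 to 3 labelled mPGES-1 KO, against 31.9, 19.2 and 27.9 CPM in those labelled WT. The targeted gene was thus higher under the knockout label. Neither the deleted part of the gene nor the way its reads were counted is given, so this level does not check the deletion. Whether the genotype labels are exchanged was not tested, and such an exchange would turn every direction given here, all of which rest on the labels. Fibroblast genes were present in every library, Pdgfra at 66.3 to 151 CPM in libraries labelled mPGES-1 KO and 28.4 to 163 CPM in those labelled WT. Col1a1, a collagen gene, had 1211, 429 and 425 CPM in libraries labelled mPGES-1 KO, against 1324, 3547 and 6820 CPM in those labelled WT. Of the 12 fibroblast markers, 4 had a positive and 8 a negative log2 fold change, mPGES-1 KO over WT. Markers of other cells were present too. The 14 pericyte and smooth muscle markers took 0.0207% to 0.0348% of counts in libraries labelled mPGES-1 KO and 0.318% to 0.888% in those labelled WT. The luminal epithelium markers, 21 of 22 listed being in the table, took 4.84% to 5.82% in libraries labelled mPGES-1 KO and 1.48% to 2.09% in those labelled WT. The endothelial markers, 11 of 12 listed, took 0.00239% to 0.0156% in libraries labelled mPGES-1 KO and 0.0182% to 0.0711% in those labelled WT. Without Esam, which is also on the pericyte list, the endothelial shares were 0.00186% to 0.0149% in libraries labelled mPGES-1 KO and 0.00662% to 0.0309% in those labelled WT. The fibroblast markers took 0.679% to 1.79% in libraries labelled mPGES-1 KO and 1.01% to 2.76% in those labelled WT. The leukocyte markers took 0.0409% to 0.165% in libraries labelled mPGES-1 KO and 0.026% to 0.0818% in those labelled WT. The basal epithelium markers, 5 of 6 listed, took 0.00962% to 0.0217% in libraries labelled mPGES-1 KO and 0.0046% to 0.0147% in those labelled WT. No listed marker that was in the table was at 0 in all libraries of a group. In such bulk libraries fewer cells of a type and less RNA per cell cannot be told apart.

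The stretches before the RefSeq starts of Nbl1 and Id2 are shown first. Nbl1 is the only member that passed the test, and Id2 is the only ID gene for which such a stretch could be printed. The stretches come from RefSeq promoter windows on GRCm38.p6, which reach from 250 bases before to 50 bases after a gene's start. These windows matched 6 of the 9 measured members. Id1 had no window, and the Id3 window began inside an annotated exon. Only the bases outside annotated exons are printed, in the direction of transcription. Capitals mark GGCGCC, the GC-rich core found in BMP-responsive elements, and TGACG, the core of cAMP response elements, each searched on both strands. Nbl1 spans chr4:139092994-139093220 on the minus strand, and Id2 spans chr12:25096254-25096342 on the minus strand. GENCODE M21 also annotates a longer Id2 transcript that starts further upstream, at 25097140, so the Id2 stretch precedes only the shorter transcript and lies between exons of the longer one. The 89 bases printed for Id2 are the first of the 250 before the RefSeq start and end at an annotated exon.
Nbl1: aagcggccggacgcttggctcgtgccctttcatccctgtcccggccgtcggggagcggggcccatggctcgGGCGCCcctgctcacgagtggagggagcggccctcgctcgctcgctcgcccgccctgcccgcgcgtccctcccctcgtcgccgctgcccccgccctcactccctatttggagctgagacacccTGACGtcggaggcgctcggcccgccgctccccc
Id2: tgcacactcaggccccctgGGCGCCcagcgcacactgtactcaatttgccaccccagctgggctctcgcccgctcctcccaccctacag

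In the Nbl1 window GGCGCC began 179 bases and TGACG 56 bases before the RefSeq start, and in the Id2 window GGCGCC began 231 bases before it. Over the whole windows, GGCGCC was also found for Bmpr1a and Bmpr2 and TGACG also for Id3, and neither for Bmp4. Of all 32851 RefSeq windows of that length, 11.9% held GGCGCC and 20.8% held TGACG. A match describes these letters only and is no evidence that a factor binds there.

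Nbl1 fell in libraries labelled mPGES-1 KO, and the other 8 members did not pass the test. Of the 9 members 0 rose and 1 fell, or 11.1%, where 2.76% of all 16543 tested genes were called in either direction, 1.2% higher and 1.56% lower. At an unadjusted p under 0.05 in the same edgeR quasi-likelihood test the members counted 0 higher and 3 lower, against 19.1% of all tested genes in either direction. DESeq2 called 0 higher and 2 lower, against 13.6% of the genes it gave an adjusted p, and limma-voom 0 higher and 3 lower, against 11.9%. The groups did not overlap for 2 of the 9, Nbl1 and Bmp1, against 27.9% of all tested genes. The median log2 fold change, mPGES-1 KO over WT, was 0.16 over the members and -0.04 over all tested genes. The members were spread over chromosomes 1, 2, 4, 12 and 14 of GRCm38, and 7 of them share no exonic base with another annotated gene. Bmp4 shares 89 bases (4%) and Bmpr1a 290 bases (4.6%) with opposite-strand genes, and reads of this kit carry no strand, so their counts may hold a little of their neighbours.

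**Figure D1:**
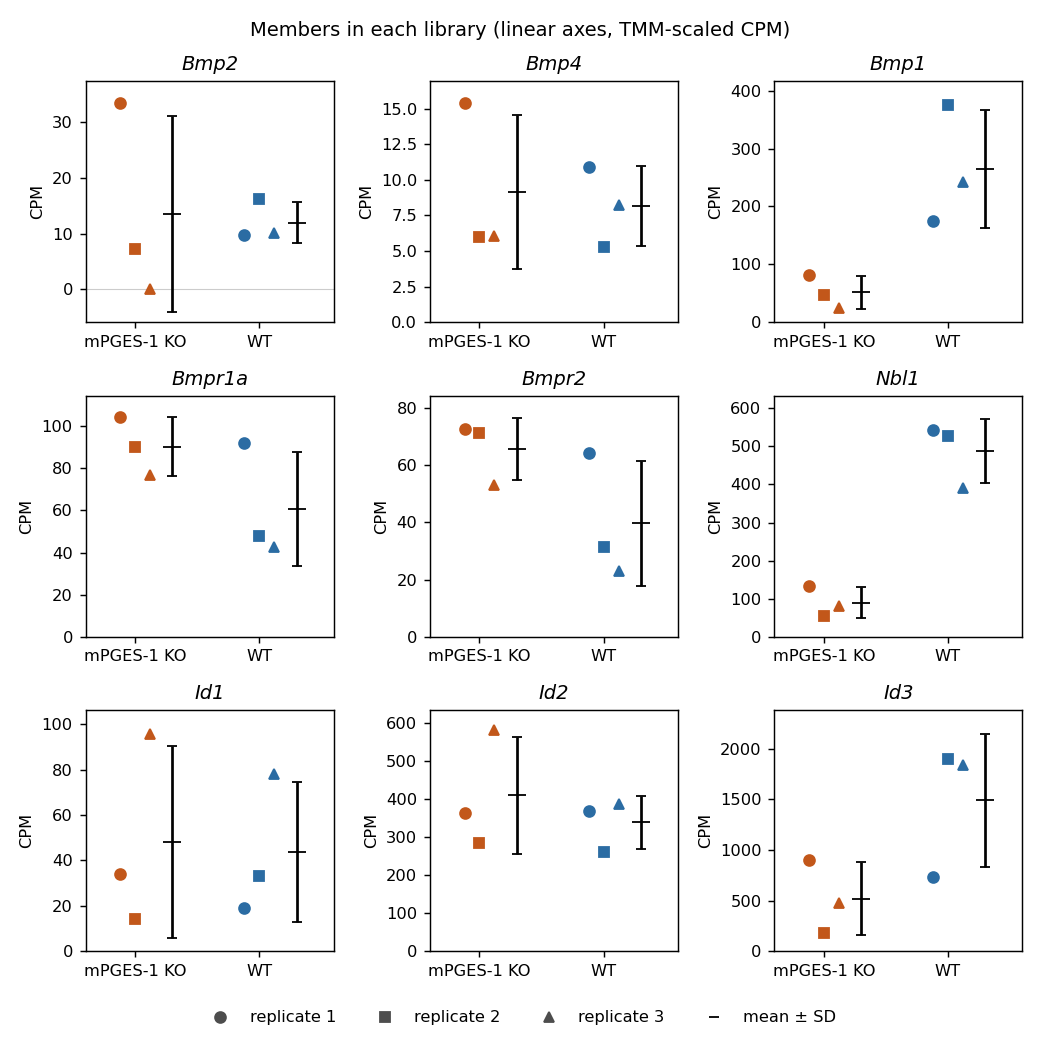
Level of each of the 9 measured members in CPM on linear axes, with the 3 libraries labelled mPGES-1 KO (orange) left of the 3 labelled WT (blue), symbols for replicates 1 to 3 and a bar for mean ± SD (n = 3). Nbl1 and Bmp1 are the 2 members whose groups do not overlap, both lower in libraries labelled mPGES-1 KO.

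The ligand genes were low and did not pass. Bmp2, a ligand best known from bone and cartilage formation, had 33.4, 7.21 and 0 CPM in replicates 1 to 3 labelled mPGES-1 KO, against 9.68, 16.1 and 10.1 CPM in those labelled WT. The libraries labelled mPGES-1 KO thus spanned the whole range of those labelled WT, from 913 counts in replicate 1 to no count in replicate 3, where 3 counts would be 0.085 CPM. Its log2 fold change of 0.18 ± 1.57 (SE) had a 95% interval from -3.46 to 3.81 and an adjusted p of 0.97 in edgeR's quasi-likelihood test. That sign rested on 1 library: without mPGES-1 KO replicate 1 the log2 fold change was -1.73.

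Bmp4, a ligand that mesenchymal cells make during organ development, had 15.4, 5.95 and 6.06 CPM in libraries labelled mPGES-1 KO, against 10.9, 5.31 and 8.26 CPM in those labelled WT. The groups overlapped, and replicate 1 was the highest library under either label. Its log2 fold change was 0.16 ± 0.70, with an interval from -1.45 to 1.77 and an adjusted p of 0.935 in edgeR's test. Without mPGES-1 KO replicate 1 it was -0.44, and without WT replicate 2 it was -0.01, so no direction can be given for this ligand.

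The receptor genes did not pass, and the groups overlapped for both. Bmpr1a, the type I receptor, had 104.5, 89.9 and 76.6 CPM in libraries labelled mPGES-1 KO, against 91.9, 47.9 and 42.4 CPM in those labelled WT. WT replicate 1 lay among the libraries labelled mPGES-1 KO, and the other libraries labelled WT lay under all of them. The log2 fold change was 0.57 ± 0.36, with an interval from -0.25 to 1.40 and an adjusted p of 0.455 (edgeR).

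Bmpr2, the type II receptor, had 72.5, 71.3 and 53.0 CPM in libraries labelled mPGES-1 KO, against 64.4, 31.5 and 23.1 CPM in those labelled WT. It showed the same arrangement, with WT replicate 1 the only library labelled WT inside the other group's range. Its log2 fold change was 0.73 ± 0.42, with an interval from -0.25 to 1.70 and an adjusted p of 0.419 (edgeR). Without WT replicate 1 the log2 fold changes were 1.03 for Bmpr1a and 1.29 for Bmpr2, still not passed at adjusted p of 0.101 and 0.0921 (edgeR). In limma-voom with quality weights they were 0.88 for Bmpr1a (adjusted p = 0.0664) and 1.12 for Bmpr2 (adjusted p = 0.0539), also not passed. Per exonic length, Bmpr1a stood above Bmpr2 in every library, by a ratio of 4.08, 3.57 and 4.10 in replicates 1 to 3 labelled mPGES-1 KO and 4.04, 4.30 and 5.21 in those labelled WT. The size of this ratio depends on the lengths used, 6351 exonic bases for Bmpr1a and 17983 for Bmpr2. The annotation used for counting is not given, so the counted exons may differ. In CPM, too, Bmpr1a stood above Bmpr2 in every library.

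Nbl1 encodes a DAN-family antagonist that binds BMPs in the extracellular space. GENCODE M21 places it on chromosome 4, minus strand, between 139082284 and 139092993, with 2033 exonic bases in 5 blocks. It had 134, 54.4 and 79.8 CPM in libraries labelled mPGES-1 KO, against 543, 528 and 391 CPM in those labelled WT. The highest library labelled mPGES-1 KO was well under the lowest labelled WT. The means were 89.4 ± 40.7 CPM in libraries labelled mPGES-1 KO and 487 ± 84.0 CPM in those labelled WT (SD, n = 3 each), 5.45-fold lower in the fit. The log2 fold change was -2.45 ± 0.38, with an interval from -3.33 to -1.56 and an adjusted p of 0.0271 in edgeR's quasi-likelihood test. The call was lost when mPGES-1 KO replicate 2, mPGES-1 KO replicate 3 or WT replicate 2 was left out, at an adjusted p of 0.106, 0.0964 and 0.112 in that order, fits that called 0, 0 and 1 of all genes. The log2 fold change stayed between -2.85 and -2.16 over the 6 fits that leave out a library. The libraries labelled mPGES-1 KO, where Nbl1 was low, also held 0.0207% to 0.0348% of counts on pericyte and smooth muscle markers, against 0.318% to 0.888% in those labelled WT. Luminal epithelium markers took 4.84% to 5.82% in libraries labelled mPGES-1 KO and 1.48% to 2.09% in those labelled WT. The part of either share in the Nbl1 difference was not tested.

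Set against a ligand within each library, the Nbl1 level per exonic length was 9.63, 10.1 and 14.6 times that of Bmp4 in libraries labelled mPGES-1 KO, against 54.9, 110 and 52.3 times in those labelled WT. The ratios did not overlap between the groups. Bmp4 had a log2 fold change of only 0.16 between the groups, so the ratio mostly restates the Nbl1 difference. No such ratio to Bmp2 can be formed in mPGES-1 KO replicate 3, where Bmp2 had no count. The ratio to Bmp4 was chosen after the values were seen and was not tested.

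Bmp1, the procollagen C-proteinase, is annotated on chromosome 14, minus strand, between 70474558 and 70520234, and had 81.6, 46.8 and 25.2 CPM in libraries labelled mPGES-1 KO, against 175, 375 and 243 CPM in those labelled WT. All 3 libraries labelled mPGES-1 KO were under all 3 labelled WT. The means were 51.2 ± 28.5 CPM in libraries labelled mPGES-1 KO and 264.5 ± 102 CPM in those labelled WT (SD, n = 3 each). This is a log2 fold change of -2.37 ± 0.49, with an interval from -3.50 to -1.24 and an adjusted p of 0.0504 in edgeR's test, just outside the threshold of 0.05. It passed where genes under 1 CPM in more than 3 libraries were dropped (adjusted p = 0.045), in DESeq2 (adjusted p = 1.25e-04) and in limma-voom (adjusted p = 0.00977). Leaving out libraries 1 at a time gave adjusted p from 0.0508 to 0.205 and log2 fold changes from -2.88 to -1.97. Here too the groups differed in pericyte and luminal marker counts by the shares given beside Nbl1, and their part was not tested.

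The ID genes did not move as a group. Id1, which restrains differentiation in many cell types, had 34.2, 14.3 and 95.7 CPM in libraries labelled mPGES-1 KO, against 19.2, 33.2 and 78.2 CPM in those labelled WT. Replicate 3 was the highest library under either label, and the spread within a group was wider than the difference between the groups. The log2 fold change of 0.14 ± 0.75 had an interval from -1.58 to 1.87 and an adjusted p of 0.947 (edgeR), and became -0.84 without mPGES-1 KO replicate 3 and -0.19 without WT replicate 1.

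Id2, an inhibitor of differentiation that mouse mammary epithelium needs for lactation, had 362, 286 and 582 CPM in libraries labelled mPGES-1 KO, against 369, 260 and 387 CPM in those labelled WT. Apart from mPGES-1 KO replicate 3, the libraries of both labels lay close together. Its log2 fold change of 0.28 ± 0.33 had an interval from -0.50 to 1.05 and an adjusted p of 0.73 (edgeR), and became -0.06 without mPGES-1 KO replicate 3.

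Id3 was the most abundant member per exonic length in the mean of either group. It is annotated on chromosome 4, plus strand, between 136143497 and 136145755, and had 904, 183 and 476 CPM in libraries labelled mPGES-1 KO, against 736, 1899 and 1839 CPM in those labelled WT. The groups overlapped, because mPGES-1 KO replicate 1 stood above WT replicate 1. The means were 521 ± 363 CPM in libraries labelled mPGES-1 KO and 1491 ± 655 CPM in those labelled WT (SD, n = 3 each), and the log2 fold change was -1.52 ± 0.61, with an interval from -2.93 to -0.11. The unadjusted p was 0.0383 and the adjusted p 0.23 in edgeR's test, so Id3 did not pass. In limma-voom with quality weights it passed at a log2 fold change of -2.34 (adjusted p = 0.0304). Leaving out mPGES-1 KO replicate 1 gave -2.17 and leaving out mPGES-1 KO replicate 2 gave -1.09.

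The make-up of the ID genes differed from library to library. Of the summed level of Id1, Id2 and Id3 per exonic length, Id3 took 73.9%, 44.0% and 45.3% in replicates 1 to 3 labelled mPGES-1 KO, against 71.0%, 88.7% and 81.9% in those labelled WT. Id2 took 21.8%, 50.6% and 40.7% in libraries labelled mPGES-1 KO, against 26.1%, 8.93% and 12.7% in those labelled WT. Id2 exceeded Id3 in mPGES-1 KO replicate 2 alone, by a ratio of 1.15. The groups overlapped for both shares.

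**Figure D2:**
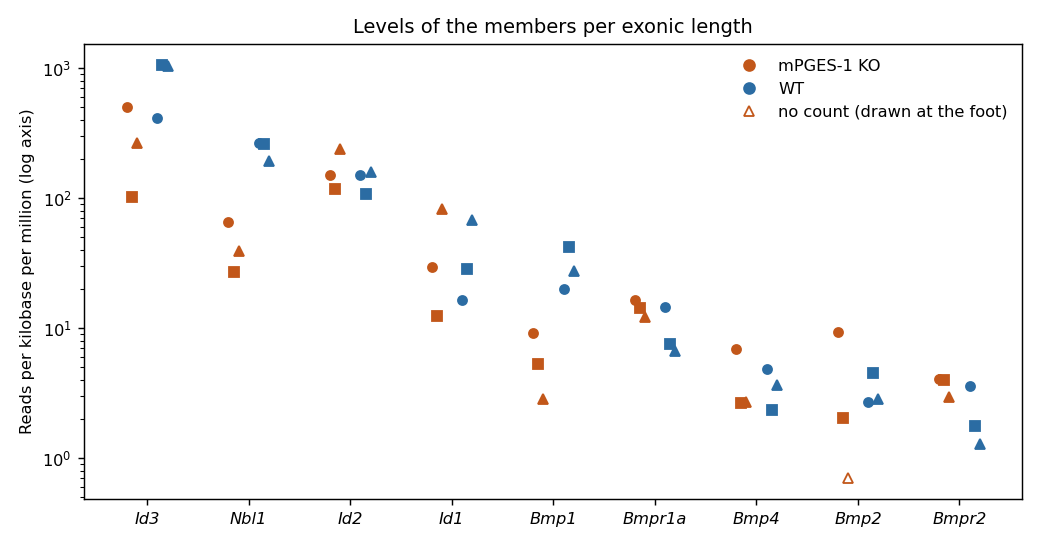
Level of each member in RPKM (CPM over kilobases of exon), on a log axis, with the libraries labelled mPGES-1 KO (orange) left of those labelled WT (blue) and symbols for replicates 1 to 3 as circle, square and triangle. The open triangle marks Bmp2 in mPGES-1 KO replicate 3, which had no count. Id3 reaches 1060 and the ligand and type II receptor genes lie under 10.

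Levels of different genes were compared per exonic length, in RPKM. The lengths may differ from the exons counted, since the counting annotation is not given. In the libraries labelled mPGES-1 KO the order of the means was Id3 (291), Id2 (168), Nbl1 (44.0), Id1 (41.4), Bmpr1a (14.2), Bmp1 (5.77), Bmp4 (4.06), Bmp2 (3.81) and Bmpr2 (3.65 RPKM). Among neighbours in that order, the ranges over libraries were apart for Id2 over Nbl1 and for Bmpr1a over Bmp1, and overlapped elsewhere. In the libraries labelled WT the order was Id3 (833), Nbl1 (240), Id2 (139), Id1 (37.5), Bmp1 (29.8), Bmpr1a (9.57), Bmp4 (3.63), Bmp2 (3.36) and Bmpr2 (2.21 RPKM). There the ranges of neighbours were apart except for Id1 and Bmp1, for Bmp4 and Bmp2 and for Bmp2 and Bmpr2. Nbl1 stood over Id2 in all 3 libraries labelled WT and under it in all 3 labelled mPGES-1 KO. Bmp1 stood over Bmpr1a in all 3 libraries labelled WT and under it in all 3 labelled mPGES-1 KO.

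The rest of the pathway was read from lists of 69 further genes, of which 56 were in the table and 53 were tested. These lists too were chosen with earlier results of these data known, so their shares of called genes are descriptive only. Of these 53, 3 rose, 1 fell and 49 did not pass, or 7.55% called against 2.76% of all tested genes. The genes that rose were Skil, Tob1 and Hey1, and the gene that fell was Tcf3. At an unadjusted p under 0.05 in edgeR's test there were 4 higher and 10 lower, against 19.1% of all tested genes. DESeq2 called 4 higher and 7 lower, against 13.6%, and limma-voom 4 higher and 6 lower, against 11.9%. The median log2 fold change of the 53 genes was -0.07, close to the -0.04 of all tested genes.

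**Figure D3:**
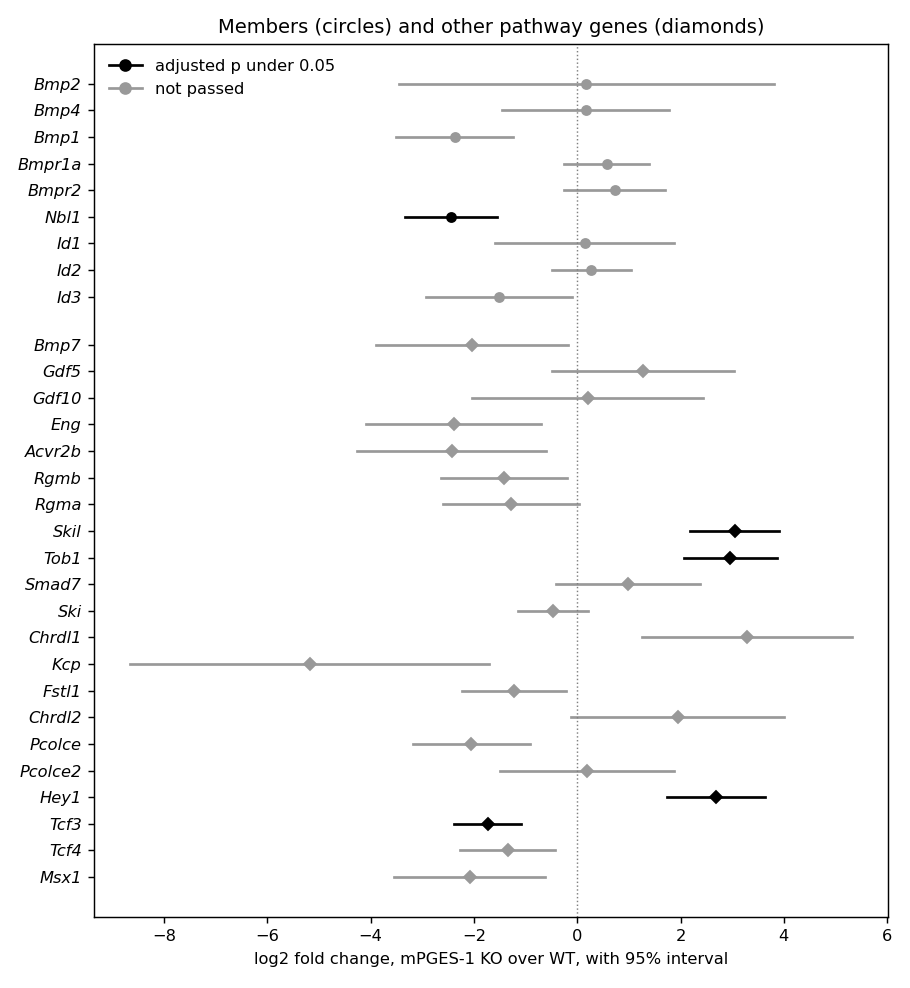
Log2 fold change, mPGES-1 KO over WT, with its 95% interval for the 9 members (circles) and for 21 other pathway genes (diamonds), black where the adjusted p of edgeR's quasi-likelihood test was under 0.05. Of those in black, Nbl1 and Tcf3 lie left of 0 and Skil, Tob1 and Hey1 right of it. Gdf5, among the diamonds, shares 40.3% of its exonic bases with an opposite-strand gene.

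The called genes downstream of the receptors act inside the cell. Among 11 SMADs and intracellular regulators 2 rose and 0 fell by edgeR, or 18.2% against 2.76% of all tested genes. The count was also 2 higher and 0 lower at an unadjusted p under 0.05, where 19.1% of all tested genes passed, in DESeq2, which called 13.6% of all, and in limma-voom, which called 11.9%. Skil, which encodes the SMAD co-repressor SnoN, had 267, 475 and 413 CPM in libraries labelled mPGES-1 KO, against 63.5, 31.5 and 44.4 CPM in those labelled WT, a log2 fold change of 3.05 ± 0.37 (adjusted p = 0.0171, edgeR). Tob1, an antiproliferative protein reported to restrain BMP SMADs in mouse osteoblasts, had 614, 1370 and 1398 CPM in libraries labelled mPGES-1 KO, against 164, 121 and 149 CPM in those labelled WT, a log2 fold change of 2.97 ± 0.39 (adjusted p = 0.0177, edgeR). Both genes were higher in every library labelled mPGES-1 KO than in any labelled WT. The calls of both were lost without mPGES-1 KO replicate 2 (adjusted p = 0.0881 for Skil and 0.0901 for Tob1), without mPGES-1 KO replicate 3 (0.0677 for both) and without WT replicate 2 (0.0684 for Skil and 0.0881 for Tob1), and that of Tob1 also without WT replicate 3 (0.0521). Of all genes, 0 and 0 were called without mPGES-1 KO replicates 2 and 3, in that order. Without WT replicates 2 and 3, 1 and 150 were called. The luminal marker share was 4.84% to 5.82% in these libraries labelled mPGES-1 KO, against 1.48% to 2.09% in those labelled WT. The pericyte and smooth muscle share also differed between the groups, and the part of either share was not tested.

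The BMP-regulated SMADs and the inhibitory SMADs were not among the called genes. Smad1, which BMP receptors phosphorylate, had a mean of 72.1 ± 12.4 CPM in libraries labelled mPGES-1 KO and 58.5 ± 24.6 CPM in those labelled WT, and Smad5, which they also phosphorylate, 48.5 ± 8.54 CPM in libraries labelled mPGES-1 KO and 35.2 ± 5.31 CPM in those labelled WT (SD, n = 3 each). Smad7, an inhibitory SMAD and feedback target, had 29.1, 34.9 and 40.7 CPM in libraries labelled mPGES-1 KO, against 4.78, 22.5 and 25.7 CPM in those labelled WT. Its groups did not overlap, and its log2 fold change of 0.98 ± 0.60 did not pass (adjusted p = 0.445, edgeR). Smad6, the other inhibitory SMAD, had 11.9, 2.56 and 6.57 CPM in libraries labelled mPGES-1 KO, against 10.9, 14.5 and 12.2 CPM in those labelled WT. The groups overlapped for Smad6, and its log2 fold change of -0.83 ± 0.70 did not pass (adjusted p = 0.59, edgeR). For Ski, a co-repressor related to SnoN, the log2 fold change of -0.47 ± 0.29 did not pass either (adjusted p = 0.457, edgeR).

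Among 9 other target genes and ID partners 1 rose and 1 fell by edgeR, or 22.2% called against 2.76% of all tested genes. At an unadjusted p under 0.05 there were 1 higher and 3 lower, against 19.1% of all tested genes. DESeq2 called 1 higher and 3 lower, against 13.6%, and limma-voom 1 higher and 2 lower, against 11.9%. Hey1, a repressor that BMP and Notch signals induce, had 150, 203 and 180 CPM in libraries labelled mPGES-1 KO, against 13.4, 33.8 and 35.6 CPM in those labelled WT, a log2 fold change of 2.69 ± 0.41 (adjusted p = 0.026, edgeR). Tcf3, an E protein that ID proteins bind, had 26.4, 31.0 and 26.5 CPM in libraries labelled mPGES-1 KO, against 78.9, 87.6 and 113 CPM in those labelled WT, a log2 fold change of -1.74 ± 0.28 (adjusted p = 0.0281, edgeR). Neither gene's groups overlapped. Each call held without WT replicate 1 and was lost without any other library, at adjusted p from 0.0556 to 0.106 for Hey1 and from 0.0712 to 0.119 for Tcf3. Of all genes, 160, 0 and 0 were called without mPGES-1 KO replicates 1, 2 and 3, in that order. Without WT replicates 2 and 3, 1 and 150 were called. The pericyte and luminal marker shares also differed between the groups, and their part in the Hey1 and Tcf3 values was not tested.

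The other E proteins did not pass in edgeR's test. Tcf4 had means of 152 ± 68.6 CPM in libraries labelled mPGES-1 KO and 387 ± 116 CPM in those labelled WT (log2 fold change -1.35 ± 0.40, adjusted p = 0.116), and Tcf12 means of 83.2 ± 4.47 CPM in libraries labelled mPGES-1 KO and 68.9 ± 0.567 CPM in those labelled WT (SD, n = 3 each; adjusted p = 0.599). Msx1, a homeobox target of BMPs, had 30.9, 7.50 and 18.5 CPM in libraries labelled mPGES-1 KO, against 44.8, 55.6 and 141 CPM in those labelled WT (log2 fold change -2.09 ± 0.63, adjusted p = 0.125). Id4, the remaining ID gene, had 11.2, 3.10 and 11.9 CPM in libraries labelled mPGES-1 KO, against 2.71, 87.7 and 46.5 CPM in those labelled WT, so that WT replicate 1 stood under every library labelled mPGES-1 KO. Its log2 fold change of -2.39 ± 1.07 did not pass (adjusted p = 0.279, edgeR). Tcf4 passed in DESeq2 (adjusted p = 0.0245) and limma-voom (adjusted p = 0.0239). Msx1 passed in DESeq2 (adjusted p = 0.0136) and not in limma-voom (adjusted p = 0.0619).

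Of 15 other secreted antagonists and modulators 0 were called by edgeR. At an unadjusted p under 0.05 there were 1 higher and 2 lower, against 19.1% of all tested genes, while DESeq2 called 1 higher and 1 lower, against 13.6%, and limma-voom 1 higher and 2 lower, against 11.9%. Chrdl1, a chordin-like antagonist, had 69.0, 24.8 and 17.7 CPM in libraries labelled mPGES-1 KO, against 8.11, 1.53 and 1.70 CPM in those labelled WT. Its groups did not overlap, and its log2 fold change of 3.29 ± 0.88 had an adjusted p of 0.0935 (edgeR). In edgeR it was 4.55 (adjusted p = 0.0406) without WT replicate 1 and 2.49 (adjusted p = 0.237) without mPGES-1 KO replicate 1. Chrdl1 passed in DESeq2 (adjusted p = 6.8e-04) and limma-voom (adjusted p = 0.0325). Kcp, a chordin-related modulator reported to strengthen BMP signals in mouse kidney, had 0.146, 0 and 1.13 CPM in libraries labelled mPGES-1 KO, against 8.68, 15.4 and 23.5 CPM in those labelled WT (log2 fold change -5.18, adjusted p = 0.112, edgeR). These are 4, 0 and 40 counts in libraries labelled mPGES-1 KO, and the log2 fold change became -7.64 when replicate 3 of that group was left out and -4.60 when its replicate 2 was. Kcp passed in DESeq2 (adjusted p = 2.65e-04) and limma-voom (adjusted p = 0.0286). Fstl1, a secreted follistatin-like protein and the most abundant gene of this list by CPM, had means of 333 ± 171 CPM in libraries labelled mPGES-1 KO and 782 ± 284 CPM in those labelled WT (adjusted p = 0.176, edgeR). Fstl1 passed in limma-voom (adjusted p = 0.0325) and not in DESeq2 (adjusted p = 0.062). Noggin, encoded by Nog, reached at most 0.841 CPM in a library labelled mPGES-1 KO and 1.89 CPM in one labelled WT.

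The other ligands, receptors and proteinase partners held no call in edgeR. Of 6 other ligands tested 0 were called by edgeR, by DESeq2 or by limma-voom, and 1, Bmp7, had an unadjusted p under 0.05, against 19.1% of all tested genes. Bmp7, a ligand of epithelia and kidney, had 1.43, 3.73 and 6.94 CPM in libraries labelled mPGES-1 KO, against 12.5, 9.005 and 28.0 CPM in those labelled WT (log2 fold change -2.03 ± 0.80, adjusted p = 0.222). Gdf5 shares 40.3% of its exonic bases with an opposite-strand gene, so its values are uncertain and are not given by library. Bmp5 (46.7%) and Fstl3 (47.3%), a gene of the modulator list, share still more. These genes are counted in their lists with that limit.

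Of 9 other receptors and co-receptors tested 0 were called by edgeR. At an unadjusted p under 0.05 there were 0 higher and 3 lower, against 19.1% of all tested genes, while DESeq2 called 2 lower, against 13.6%, and limma-voom 1 lower, against 11.9%. Eng, which encodes the co-receptor endoglin of endothelial and stromal cells, had 32.6, 12.4 and 4.13 CPM in libraries labelled mPGES-1 KO, against 76.8, 129 and 52.5 CPM in those labelled WT (log2 fold change -2.39 ± 0.73, adjusted p = 0.125, edgeR). Leaving out mPGES-1 KO replicate 1 gave -3.38 for Eng (adjusted p = 0.0773, edgeR). Eng passed in DESeq2 (adjusted p = 0.00907) and limma-voom (adjusted p = 0.0378). Acvr2b, an activin and BMP type II receptor, had 3.77, 1.55 and 1.84 CPM in libraries labelled mPGES-1 KO, against 6.35, 12.7 and 19.6 CPM in those labelled WT (adjusted p = 0.145, edgeR). Acvr2b passed in DESeq2 (adjusted p = 0.0154) and not in limma-voom (adjusted p = 0.062). Beside Eng, the endothelial marker list took 0.00239% to 0.0156% of counts in libraries labelled mPGES-1 KO and 0.0182% to 0.0711% in those labelled WT, with no overlap. Without Esam these shares overlapped, at 0.00186% to 0.0149% in libraries labelled mPGES-1 KO and 0.00662% to 0.0309% in those labelled WT. Of the 11 markers of the full list, all tested, 5 had a positive and 6 a negative log2 fold change, mPGES-1 KO over WT. The part of these shares in the Eng values was not tested.

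Pcolce, the enhancer protein that helps BMP1 cleave procollagen, had 441, 111 and 279 CPM in libraries labelled mPGES-1 KO, against 973, 1397 and 1068 CPM in those labelled WT. Its groups did not overlap, as for Bmp1 itself. The log2 fold change was -2.05 ± 0.49 with an adjusted p of 0.0736 (edgeR), and Pcolce passed in DESeq2 (adjusted p = 8.14e-04) and limma-voom (adjusted p = 0.0137). The part of the pericyte and luminal marker shares in the Pcolce difference was not tested. Pcolce2, its relative, overlapped between the groups, with 150, 64.0 and 79.4 CPM in libraries labelled mPGES-1 KO, against 71.6, 16.8 and 169 CPM in those labelled WT.

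**Figure D4:**
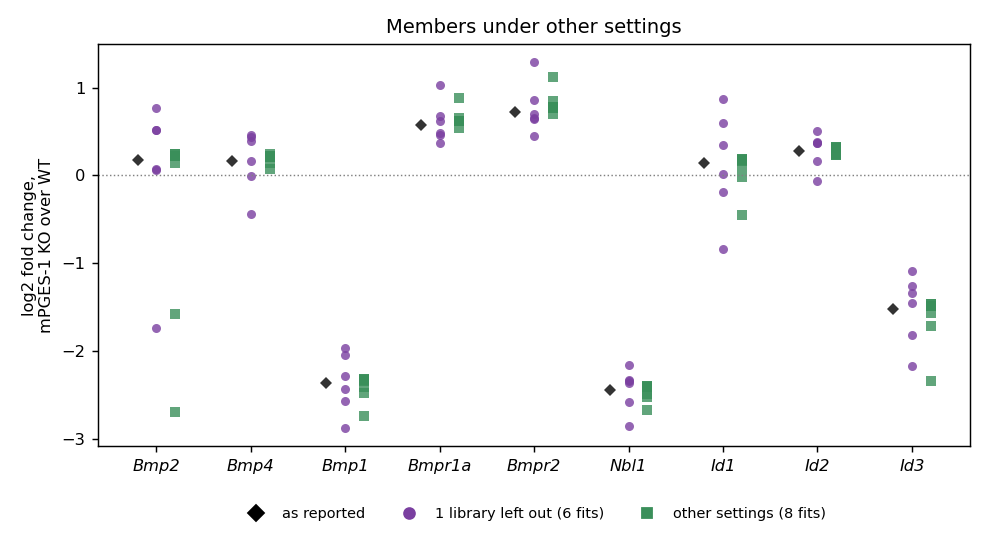
Log2 fold change, mPGES-1 KO over WT, of each member as reported (black), in the 6 fits that leave out 1 library (purple) and in 8 other settings (green). Nbl1, Bmp1 and Id3 stay under 0 and Bmpr1a and Bmpr2 stay over 0 in every fit drawn, while Bmp2, Bmp4, Id1 and Id2 lie on both sides.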

How the data were processed

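The labels' protocols describe cDNA from sorted cells, made with an ultra-low input kit, amplified by 16 PCR cycles and sequenced as single reads of 75 cycles. FastQC 0.11.5, STAR and the build mm10 appear in the submitters' processing notes. Neither the counting tool nor its annotation is given in the sources used here. The authors deposited raw counts per gene symbol, not normalized, in 1 table. The test was that of edgeR 4.0.16 in R 4.3.3 (filterByExpr, TMM, robust quasi-likelihood, two-sided) over all 6 libraries, with Benjamini-Hochberg adjustment over 16543 genes and a call below 0.05. Standard errors are log2 fold changes, without sign, over the square root of F. The common biological coefficient of variation was 0.818. DESeq2 1.42.0 and limma 3.58.1 were alternatives. Exonic lengths and positions are from GENCODE M21 (GRCm38, which mm10 also names). Named genes were the members, Ptges, and per pathway list the called genes and then those of lowest p at a mean of at least 5 CPM, up to 4. Smad1, Smad5, Smad6, Tcf12, Id4, Nog and Col1a1 were added after their values were seen, as was the endothelial share without Esam. The members and lists were chosen with earlier results of these data known. Reads carry no molecular identifiers, so count floors cover counting error only.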

Additional observations from a re-analysis of the deposited data

How the results depend on the processing

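Calls changed with the tool and with the libraries kept. Of all genes, 456 were called, 2093 in DESeq2, 1965 in limma-voom, 0 with the replicate number as a block and 0 to 568 over the 6 fits that leave out 1 library. Of the 9 members 1 was called, 2 where 3 libraries had to exceed 1 CPM, 2 in DESeq2, 3 in limma-voom, 0 with the replicate block and 0 to 1 with a library left out. The labels do not say whether the replicate numbers pair the libraries. Same-numbered libraries deviated from their group means with correlations of -0.085, 0.031 and -0.001, and mPGES-1 KO replicate 1 correlated best with WT replicate 3. With 3 libraries per group, these correlations cannot decide whether the libraries were paired. Under the block Nbl1 stood at -2.53 on the log2 scale (adjusted p = 0.0884), and over left-out libraries it ran from -2.85 to -2.16. Bmp1 passed with that stricter filter (-2.33), in DESeq2 (-2.32) and in limma-voom (-2.74), and Id3 in limma-voom (-2.34). Signs turned for Bmp2 in limma-voom (-2.69) and under the block (-1.58), and it ran from -1.73 to 0.77 with a library left out. They turned for Id1 in limma-voom (-0.45) and under the block (-0.014), with -0.84 to 0.88 over left-out libraries. Bmp4 ran from -0.44 to 0.46 and Id2 from -0.061 to 0.51 over left-out libraries. Gdf10 turned in limma-voom (-0.69) and under the block (-0.47) and ran from -1.60 to 0.95, and Pcolce2 from -0.25 to 1.14. The other receptors counted 2 calls in DESeq2 and 1 in limma-voom, the secreted antagonists 2 and 3 and 0 to 1 with a library left out, and the tolloid group 1 in each tool. The SMAD group, with 2 calls, had 0 under the block and 0 to 2 with a library left out, and the targets and partners, also 2, had 4 in DESeq2, 0 under the block and 0 to 2. Beside these counts, DESeq2 called 13.6% of the genes it gave an adjusted p, and limma-voom 11.9% of all tested genes. The cause of these changes was not tested. No member's sign turned under the scalings by DESeq2 size factors, by library size or by TMM without cell type markers, and the median of all genes stayed between -0.07 and 0.01. The smallest log2 fold change among all called genes was 1.13 in size, larger than those of either receptor.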
